A study of Mus musculus with 6 samples.

Results

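The 9 genes examined here, in total RNA of the mouse mammary carcinoma line 4T1, encode the enzymes of serine synthesis and of folate one-carbon metabolism. They are Phgdh, Psat1, Psph, Shmt1, Shmt2, Mthfd1, Mthfd2, Mthfd1l and Aldh1l2. The genes were taken by name from the 48587 genes of the count table. All 9 were listed and 8 passed the abundance filter of at least 1 cpm, a count scaled to the size of its library, in at least 3 of the 6 libraries. In cells that overexpressed METTL7A1, the cytosolic enzymes Shmt1 and Mthfd1 and the mitochondrial synthetase Mthfd1l fell, while the serine synthesis enzymes Psat1 and Psph and the mitochondrial enzymes Shmt2 and Mthfd2 rose. The higher level of Shmt2 was shared by the genes around it, and Shmt2 did not pass the test once their median was taken off. The genes around Mthfd1 and Mthfd1l were mostly lower too. With their medians taken off, the log2 fold changes went from -1.01 to -0.56 for Mthfd1 and from -0.71 to -0.33 for Mthfd1l. Both still passed the test, which takes the medians as fixed and leaves out the spread among those genes. Phgdh did not pass the test. Among the tested enzymes the changes reached at most 2.01-fold.

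The METTL7A1 group and the mock group held 3 libraries each. METTL7A1 cells carried a stably transfected full-length Mettl7a1 cDNA, tagged with FLAG and driven by the CMV promoter of the pBICEP-CMV-2 vector. Mock cells were transfected with the empty vector. Both groups came from the same line, were grown in DMEM/F12 medium with 10% fetal bovine serum and were kept under selection with G418 at 350 μg/ml. Whether each group is a clone or a pool of transfected cells is not given in the sources used here, so differences between the transfected lines and the effect of METTL7A1 cannot be told apart. The libraries are called biological triplicates, but nothing says that they came from separate transfections, and the p values measure the spread between these libraries.

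Serine is made from the glycolytic intermediate phosphoglycerate. PHGDH oxidises phosphoglycerate, PSAT1 transfers an amino group to the product and PSPH removes the phosphate. Serine hydroxymethyltransferases then move a carbon from serine to tetrahydrofolate and release glycine, SHMT1 mainly in the cytosol and SHMT2 in mitochondria. The folate-bound carbon is oxidised and released as formate in mitochondria by MTHFD2 and MTHFD1L, or oxidised to carbon dioxide by ALDH1L2, and it is taken up and used in the cytosol by MTHFD1, which joins the dehydrogenase, cyclohydrolase and synthetase activities in a single protein. The products feed purine, thymidylate and methionine synthesis. In tumour cells the mitochondrial arm is known as a main source of formate, and Phgdh, Psat1, Shmt2, Mthfd2 and Aldh1l2 are among the known targets of ATF4, the transcription factor of the amino acid and endoplasmic reticulum stress response.

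Promoter sequence was read for the enzymes from RefSeq windows of 250 bases before to 50 bases after each annotated start (build GRCm38.p6, the same primary assembly as the mm10 coordinates of the counts), and 8 of the 9 genes had an entry. The motifs searched on both strands were the CCAAT box, the ATF4 composite element TGATGNAA, the E-box CACGTG and TGACNNNGC, the core of antioxidant response elements. The CCAAT box was present in 6 of the 8 genes (Phgdh, Psat1, Psph, Shmt1, Mthfd1 and Mthfd2) and in 37.4% of all 32851 promoters of the table. A gene counted where any of its entries matched, and the 8 genes had 9 entries. TGACNNNGC was present in 2 of the 8 (Phgdh and Psph) and in 12.4% of all promoters. Neither TGATGNAA nor CACGTG matched in the windows of the 8 genes, against 3.97% and 7.15% of all promoters. Matches of different motifs did not overlap in these windows. A match or its absence in a window describes letters only. The 100 bases before the start are shown for a pair of genes that rose and a pair that fell, because the CCAAT box was present in both pairs. They are written on the strand of the gene, with CCAAT or its reverse complement in capitals.
Psat1, which rose (first of its annotated starts, minus strand, chr19:15925060-15925159): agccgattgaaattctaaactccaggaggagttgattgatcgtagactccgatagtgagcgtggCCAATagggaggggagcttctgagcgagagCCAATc
Mthfd2, which rose (minus strand, chr6:83317605-83317704): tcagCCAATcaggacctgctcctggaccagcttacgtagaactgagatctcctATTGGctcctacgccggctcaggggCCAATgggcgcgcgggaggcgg
Shmt1, which fell (minus strand, chr11:60811266-60811365): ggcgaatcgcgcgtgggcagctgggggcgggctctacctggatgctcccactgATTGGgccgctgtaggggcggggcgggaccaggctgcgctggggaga
Mthfd1, which fell (plus strand, chr12:76255132-76255231): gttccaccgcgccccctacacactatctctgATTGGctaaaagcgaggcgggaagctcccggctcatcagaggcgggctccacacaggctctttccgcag
Mthfd2 carried 3 boxes in the 100 bases shown and Psat1 2, while Shmt1 and Mthfd1 carried 1 each. The 100 bases before the other annotated start of Psat1 held 0. Psph, which rose, held 2 in its 100 bases, and Phgdh, which did not pass the test, held 1. Shmt2 and Mthfd1l had no CCAAT box in the whole window.

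The libraries held 18386780 to 28459338 counts. Mettl7a1 itself had 6355, 11358 and 10398 counts in the METTL7A1 libraries and 30, 30 and 29 in the mock libraries, so every label was borne out by the transfected gene. The correlation of log2 cpm was 0.992 to 0.997 within groups and 0.971 to 0.976 between groups. The 20 most abundant genes took 23.6 to 33.7% of the counts, with the highest share in mock replicate 1. All 5 epithelial markers (Krt8, Krt18, Krt14, Epcam and Cdh1) were detected, with a summed level of 1419 to 1683 cpm in METTL7A1 and 1402 to 1714 cpm in mock cells. Within this class Krt14, a basal keratin, fell from 37.8 ± 1.16 to 9.79 ± 0.722 cpm (SD, n = 3; log2 fold change -1.94, SE 0.09, edgeR adjusted p = 7.54e-08), while the other 4 markers did not pass the test, with log2 fold changes from -0.16 (Epcam) to 0.24 (Krt18). Leukocyte markers summed to 11.6 to 14.1 cpm in METTL7A1 against 4.92 to 6.32 cpm in mock cells, with 1 of 4 (Cd68) past the filter and Cd3e at 0 in every library. Fibroblast markers summed to 23.8 to 26.7 against 17.5 to 19.8 cpm, with 1 of 4 (Pdgfra) past the filter, and endothelial markers to 0.754 to 0.892 against 0.413 to 0.644 cpm, with 0 of 3 past it. Cd68 was 2.34-fold higher (edgeR adjusted p = 5.05e-05) and Pdgfra 1.38-fold higher (adjusted p = 0.00177) in METTL7A1 cells. The part of these marker differences in the results was not tested.

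Changes between the groups were frequent. Of 13166 genes tested with edgeR's quasi-likelihood test, 42.1% had an adjusted p under 0.05, 21.1% higher and 21% lower in METTL7A1 cells. Of the 8 tested enzymes, 7 passed this test, 4 higher and 3 lower. Their median log2 fold change (METTL7A1 against mock throughout) was 0.10, with a range from -1.01 to 0.67, beside a median of -0.03 over all tested genes, whose median absolute value was 0.25. In 7 of the 8 enzymes the METTL7A1 and mock libraries did not overlap, as was the case for 51.6% of all tested genes. The study's own thresholds, an adjusted p under 0.01 with a log2 fold change over 1.5 in either direction, were passed by 2.48% of tested genes. By edgeR, DESeq2 or limma's voom 0 of the 8 enzymes passed them, and 7 had an unadjusted p under 0.05 in edgeR.

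**Figure D1:**
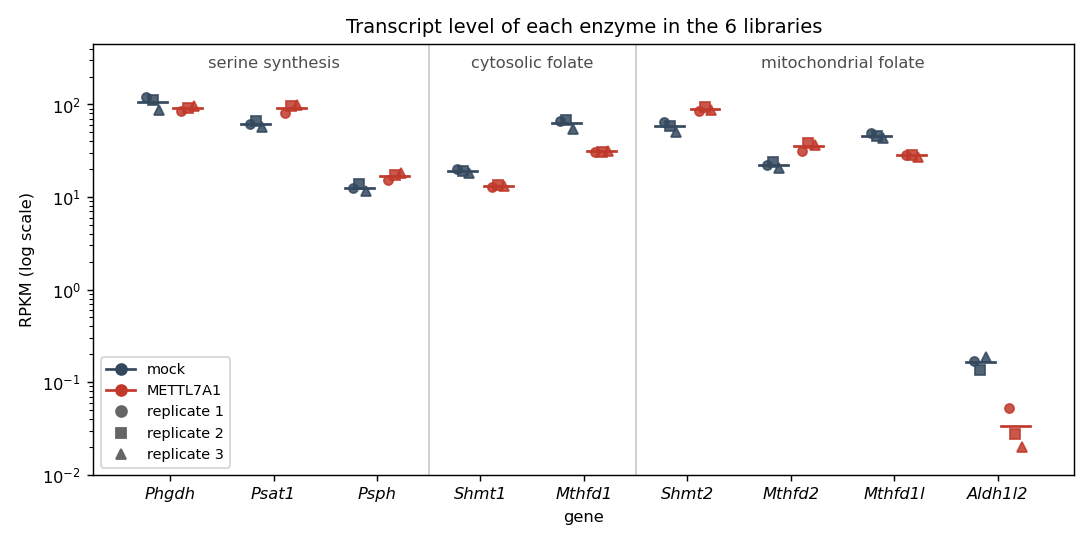
Transcript level of each enzyme (RPKM, cpm per kilobase of exon, log axis) in each of 3 METTL7A1 and 3 mock libraries, with bars at the group means. Psat1, Psph, Shmt2 and Mthfd2 lie higher in METTL7A1 cells, Shmt1, Mthfd1, Mthfd1l and Aldh1l2 lie lower, and the Phgdh libraries of both groups overlap.

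Among the serine synthesis enzymes Psat1 rose 1.5-fold and Psph 1.35-fold, while Phgdh, the first enzyme of the route, had a lower mean that did not pass the test. Psat1, on chromosome 19 (15904678 to 15925059, minus strand), had 240, 285 and 289 cpm in METTL7A1 replicates 1 to 3 and 182, 196 and 166 cpm in mock replicates 1 to 3. The lowest METTL7A1 library was above the highest mock library. The means were 271 ± 27.6 and 181 ± 15 cpm (SD, n = 3), and the log2 fold change was 0.58 (SE 0.09, adjusted p = 0.00054).

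Psph, on chromosome 5 (129765558 to 129787449, minus strand), was the least abundant of these 3 genes. Its level was 26.5, 30.2 and 31.3 cpm in METTL7A1 and 21.6, 23.8 and 20.01 cpm in mock replicates 1 to 3, again without overlap. The means were 29.3 ± 2.55 and 21.8 ± 1.91 cpm (SD, n = 3), and the log2 fold change was 0.43 (SE 0.10, adjusted p = 0.00416). The opposite strand of the locus carries Cct6a, a chaperonin subunit gene with 7882 to 15126 counts that shares 452 of the 1733 exon bases of Psph. Cct6a was 0.27 lower on the log2 scale in METTL7A1 cells, the opposite direction to Psph.

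Phgdh, on chromosome 3 (98313170 to 98339990, minus strand), had 162, 174 and 182 cpm in METTL7A1 and 228, 211 and 165 cpm in mock replicates 1 to 3. Mock replicate 3 lay among the METTL7A1 libraries and the other mock libraries lay above them. The means were 173 ± 10.2 and 201 ± 32.7 cpm (SD, n = 3), with a log2 fold change of -0.22 (SE 0.11, 95% confidence interval -0.46 to 0.02, adjusted p = 0.131). Without mock replicate 3 the log2 fold change was -0.34 and passed the edgeR test (adjusted p = 0.0052). The level of Phgdh is uncertain in another respect. Of its 31-base exon sequences, 55.9% also occur in other genes of the annotation, mainly in processed copies such as Gm7901, and the 12 of these genes in the count table held 127 to 265 counts in all per library, against 3007 to 5132 for Phgdh.

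Both cytosolic folate enzymes fell, Mthfd1 2.01-fold and Shmt1 1.44-fold. Mthfd1, on chromosome 12 (76255232 to 76319820, plus strand), had 102, 103 and 105 cpm in METTL7A1 and 218, 225 and 180 cpm in mock replicates 1 to 3. The METTL7A1 libraries were close together and far below each mock library. The means were 103 ± 1.12 and 208 ± 24.4 cpm (SD, n = 3), and the log2 fold change of -1.01 (SE 0.09, adjusted p = 9.18e-06) was the largest in size among the 8 tested enzymes.

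Shmt1, on chromosome 11 (60788104 to 60811265, minus strand), had 37.1, 38.7 and 37.6 cpm in METTL7A1 and 57.0, 55.2 and 51.4 cpm in mock replicates 1 to 3. The groups did not overlap. The means were 37.8 ± 0.826 and 54.5 ± 2.86 cpm (SD, n = 3), and the log2 fold change was -0.53 (SE 0.07, adjusted p = 0.000166). Smcr8, on the opposite strand, shares 184 of the 2858 exon bases of Shmt1 and was 0.33 higher on the log2 scale.

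The mitochondrial folate enzymes moved in both directions. Mthfd2 rose 1.59-fold and Shmt2 1.52-fold, while Mthfd1l fell 1.64-fold and Aldh1l2 was near the limit of detection. Mthfd2, on chromosome 6 (83305691 to 83317606, minus strand), had 65.0, 80.4 and 76.6 cpm in METTL7A1 and 46.4, 50.1 and 43.4 cpm in mock replicates 1 to 3. Every METTL7A1 library was above every mock library. The means were 74.0 ± 8.01 and 46.6 ± 3.40 cpm (SD, n = 3), and the log2 fold change was 0.67 (SE 0.09, adjusted p = 0.000182). Gm43890, a predicted gene that overlaps the span of Mthfd2 on the same strand without a shared exon base, had a log2 fold change of 1.02 (SE 0.15, adjusted p = 0.000378).

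Shmt2, on chromosome 10 (127517123 to 127522444, minus strand), had 194, 218 and 202 cpm in METTL7A1 and 149, 136 and 117 cpm in mock replicates 1 to 3. The groups did not overlap, and mock replicate 3 was the lowest of all 6 libraries. The means were 205 ± 12 and 134 ± 15.9 cpm (SD, n = 3), and the log2 fold change was 0.61 (SE 0.09, adjusted p = 0.000378). The genes around Shmt2 had a median log2 fold change of 0.53, and with that median as an offset Shmt2 was at 0.08 (edgeR adjusted p = 0.564).

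Mthfd1l, at the other end of chromosome 10 (3973118 to 4167081, plus strand), had 122, 122 and 116 cpm in METTL7A1 and 212, 194 and 185 cpm in mock replicates 1 to 3. The METTL7A1 libraries were close together and all below the mock libraries. The means were 120 ± 3.27 and 197 ± 13.9 cpm (SD, n = 3), and the log2 fold change was -0.71 (SE 0.07, adjusted p = 2.83e-05).

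Aldh1l2, also on chromosome 10 (83487450 to 83534140, minus strand), did not pass the abundance filter. It had 6, 5 and 3 counts in METTL7A1 and 19, 20 and 28 counts in mock replicates 1 to 3, or 0.205 ± 0.105 and 0.997 ± 0.155 cpm (SD, n = 3). Each METTL7A1 library held fewer counts than each mock library. Tested with no filter, where 20.9% of 28601 genes had an adjusted p under 0.05, its log2 fold change was -2.29 (SE 0.44, edgeR adjusted p = 3.80e-06), a 4.89-fold lower level. Aldh1l2 also entered the fit without the 20 most abundant genes, at -2.31 with a larger edgeR adjusted p of 0.000735. D10Wsu102e on the opposite strand shares 1056 of the 6091 exon bases of Aldh1l2, holds 3259 to 7209 counts and had a log2 fold change of 0.39, so the few Aldh1l2 counts lie beside a far more abundant transcript.

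Levels per length were compared in RPKM, the cpm divided by the exon length in kilobases. In mock cells Phgdh was highest at 106 ± 17.3 RPKM (SD, n = 3), followed by Mthfd1 at 62.4 ± 7.35, Psat1 at 61.7 ± 5.12 and Shmt2 at 58.3 ± 6.92 RPKM. The libraries of these last 3 neighbours in the order overlapped. Mthfd1l followed at 46.1 ± 3.25, Mthfd2 at 22.4 ± 1.63, Shmt1 at 19.1 ± 1.00, Psph at 12.6 ± 1.1 and Aldh1l2 at 0.164 ± 0.0255 RPKM, each without overlap with the next.

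In METTL7A1 cells the order was different. Psat1 at 92.4 ± 9.39, Phgdh at 91.2 ± 5.38 and Shmt2 at 88.7 ± 5.23 RPKM (SD, n = 3) stood at the top with overlapping libraries. Mthfd2 at 35.5 ± 3.84 and Mthfd1 at 31.1 ± 0.336 RPKM overlapped as well, whereas in the mock libraries Mthfd2 was at 0.339 to 0.385 of the level of Mthfd1. Mthfd1l at 28.1 ± 0.766, Psph at 16.9 ± 1.47, Shmt1 at 13.2 ± 0.289 and Aldh1l2 at 0.0336 ± 0.0173 RPKM followed, each without overlap with the next.

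**Figure D2:**
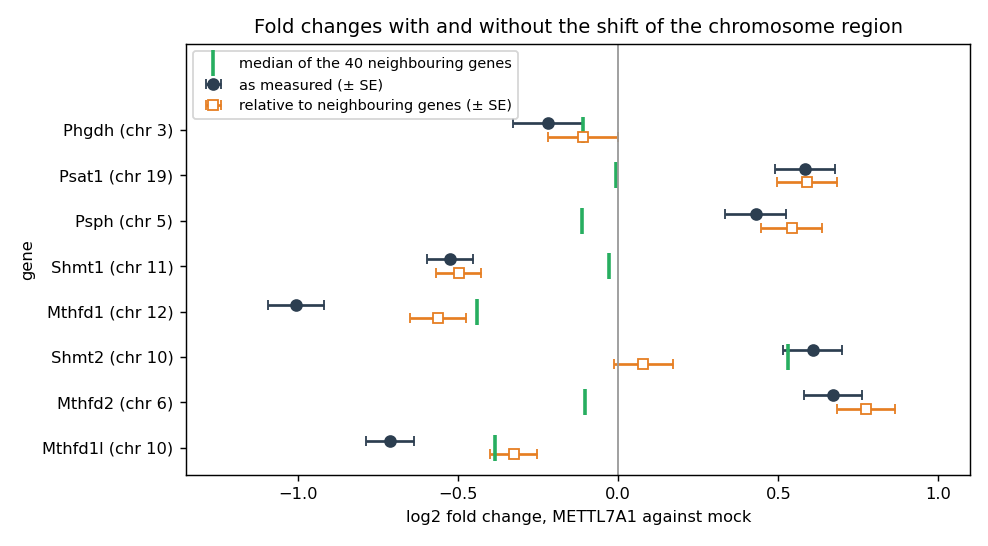
Log2 fold change of the 8 tested enzymes, METTL7A1 against mock, with bars of ± SE. Values are from the fit over all genes and from the fit with the median of 40 chromosomal neighbours as an offset. Shmt2 moves from 0.61 to 0.08 with the offset and Mthfd1 from -1.01 to -0.56, while Mthfd2, Psat1 and Psph lie at 0.77, 0.59 and 0.54.

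Whole stretches of some chromosomes were higher or lower in METTL7A1 cells, and the enzymes were therefore set beside the 40 nearest genes on their chromosome with an average log2 cpm over 2. This matters most for Shmt2. Of its 40 neighbours 38 were higher in METTL7A1 cells, 34 of the 40 passed the test, and 17 had a log2 fold change at least as high as that of Shmt2. Their median was 0.53. The nearest tested genes beside Shmt2 were Stac3, at 0.60 (SE 0.38, adjusted p = 0.23), and Lrp1, at 2.21 (SE 0.10, adjusted p = 8.86e-08). With the median of the neighbours as an offset in the edgeR fit, the log2 fold change of Shmt2 was 0.08 (SE 0.09, adjusted p = 0.564). The offset is a fixed value in this fit, so the SE and p given with it leave out the spread among the neighbours.

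The neighbours of Mthfd1 and Mthfd1l were mostly lower, and both genes were lower still. Around Mthfd1 36 of 40 neighbours were lower, with a median of -0.44 beside -0.42 for the abundant genes of chromosome 12, and 2 of the 40 were as low as Mthfd1. With the offset Mthfd1 remained past the edgeR threshold at -0.56 (SE 0.09, adjusted p = 0.000646). The tested genes next to Mthfd1 were Gm7862, at 0.00 (SE 0.21, adjusted p = 0.991), and Akap5, at -1.61 (SE 0.30, adjusted p = 0.00142).

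Around Mthfd1l 34 of 40 neighbours were lower, with a median of -0.39 and quartiles of -0.58 and -0.23. The median of the abundant genes over all of chromosome 10 was 0.29. All 40 neighbours lay on the same side of Mthfd1l, up to 13.9 Mb away, and 5 of the 40 were at least as low. Mthfd1l had a log2 fold change of -0.33 with the offset (SE 0.07, edgeR adjusted p = 0.00618). Its nearest tested genes were Gm16074 at -0.14 (SE 0.24, adjusted p = 0.658) and Akap12 at -0.50 (SE 0.08, adjusted p = 0.000411). Gm16074 overlaps the span of Mthfd1l on the same strand, without a shared exon base. Aldh1l2 went against its surroundings, since 37 of its 40 neighbours were higher, with a median of 0.43, and the nearest tested genes D10Wsu102e and A230046K03Rik were at 0.39 (SE 0.17) and 0.49 (SE 0.07).

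The other 5 enzymes lay in stretches with a median near that of all genes, between -0.11 and -0.01. With the offset Psat1 was at 0.59 (adjusted p = 0.000724), Psph at 0.54 (adjusted p = 0.00145), Mthfd2 at 0.77 (adjusted p = 8.66e-05) and Shmt1 at -0.50 (edgeR adjusted p = 0.00033). Phgdh was at -0.11 (SE 0.11, adjusted p = 0.49). In all, 6 of the 8 enzymes passed the test with the offset, 3 higher and 3 lower, beside 31.5% of all tested genes, and the median of the enzymes was -0.02.

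The nearest tested genes beside these 5 were a mixed group. Tle4 (0.94, SE 0.12) and Cep78 (-0.08, SE 0.11) flank Psat1, and Gbas (-0.37, SE 0.08) and Gm23245 (-0.52, SE 0.17) flank Psph. Smcr8 (0.33, SE 0.07) and Dhrs7b (0.04, SE 0.11) flank Shmt1, and Gm42820 (-0.08, SE 0.21) and Zfp697 (-0.21, SE 0.09) flank Phgdh. Dctn1 (-0.21, SE 0.08) lies beside Mthfd2, while Gm43890 overlaps the span of Mthfd2 on the same strand. For Psph and Shmt1, the flanking genes that passed the test moved in the direction opposite to the enzyme. Tle4 beside Psat1 (edgeR adjusted p = 0.000149) and Gm43890 at Mthfd2 (1.02, adjusted p = 0.000378) passed and moved in the same direction as the enzyme.

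**Figure D3:**
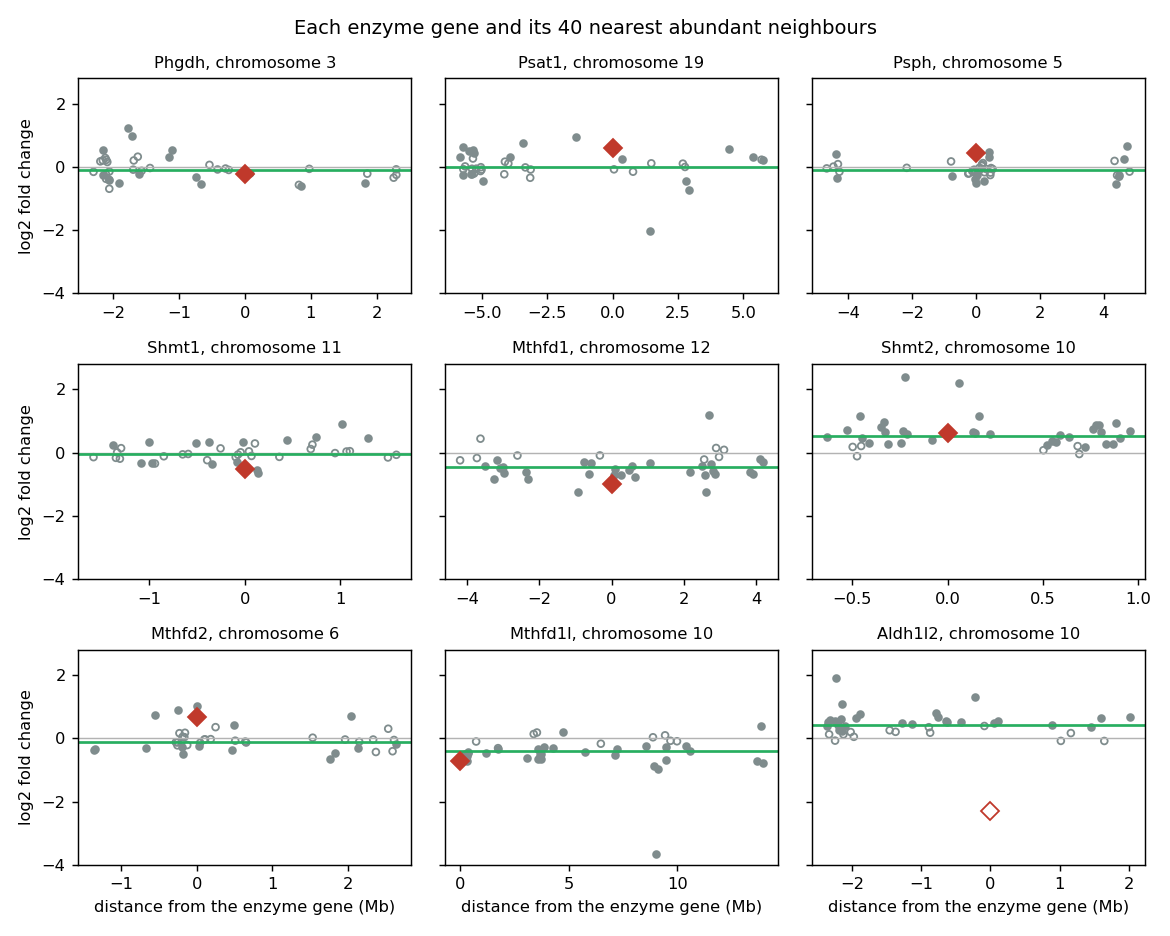
Log2 fold change, METTL7A1 against mock, of each enzyme (coloured) and its 40 nearest abundant neighbours (grey), plotted by distance between gene midpoints in Mb, with a line at the neighbours' median. Neighbours of Shmt2 lie around 0.53 and those of Mthfd1 around -0.44, while those of Psat1 lie around -0.01.

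The mitochondrial and cytosolic forms of the same activity were compared within each library as log2 ratios of counts per kilobase, which do not depend on library scaling. Shmt2 to Shmt1, the hydroxymethyltransferases, stood at 2.69, 2.8 and 2.74 in METTL7A1 and 1.70, 1.62 and 1.5 in mock replicates 1 to 3. The groups did not overlap, and the ratio was 2.20-fold higher in METTL7A1 cells. The difference was 1.14 on the log2 scale, and 0.58 after subtraction of the neighbours' medians.

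Mthfd2 to Mthfd1, which share the methylenetetrahydrofolate dehydrogenase activity, stood at 0.02, 0.31 and 0.23 in METTL7A1 and -1.56, -1.49 and -1.38 in mock replicates 1 to 3. Mthfd2 was thus the lower of the pair per length in every mock library and the higher, if barely in replicate 1, in every METTL7A1 library. The ratio was 3.17-fold higher, a difference of 1.66 on the log2 scale, and 1.32 after subtraction of the neighbours' medians.

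Mthfd1l to Mthfd1, which share the formyltetrahydrofolate synthetase activity, stood at -0.11, -0.12 and -0.21 in METTL7A1 and -0.40, -0.58 and -0.32 in mock replicates 1 to 3. Both genes fell, Mthfd1 by more, and the ratio was 1.22-fold higher (0.29 on the log2 scale, 0.23 after the neighbours). In the exact two-sided permutation test each of the 3 ratios reached p = 0.1, which is the smallest p that 3 libraries against 3 allow, and adjustment over the 3 ratios leaves it at that value.

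**Figure D4:**
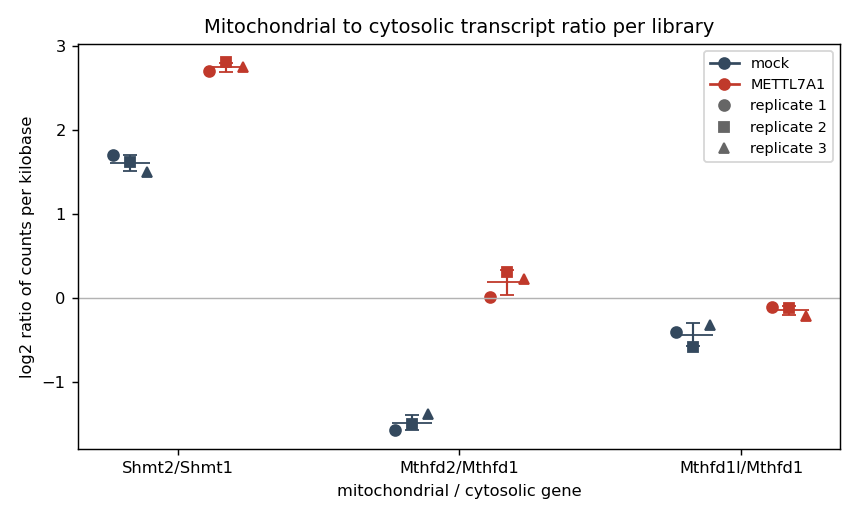
Log2 ratio of counts per kilobase of the mitochondrial to the cytosolic gene in each library, with bars at the group means. All METTL7A1 libraries lie above the mock libraries for each of the 3 pairs, by 1.14 for Shmt2/Shmt1, 1.66 for Mthfd2/Mthfd1 and 0.29 for Mthfd1l/Mthfd1.

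The rest of the folate pathway was described from a list of 14 genes, of which 10 were tested. Of these 1 rose and 3 fell, with a median log2 fold change of -0.20. Over all tested genes 42.1% passed the test (21.1% higher, 21% lower), and 31.5% passed with the neighbour offset. The counts of this list and of the lists below stand beside these shares. Ggh, a hydrolase of folate polyglutamates, fell (-1.24, SE 0.23), as did Fpgs, which adds the glutamates (-0.56, SE 0.09), and Slc25a32, the mitochondrial folate carrier (-0.61, SE 0.07). Aldh1l1, Mthfs, Ftcd and Folr1 were not tested. With the neighbour offset 1 gene of the list was higher and 4 were lower.

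In the glycine cleavage system, which breaks down glycine in mitochondria and passes its carbon to folate, 3 of 4 genes were tested. Amt rose (0.69, SE 0.18, adjusted p = 0.00958), and Gcsh (-0.49, SE 0.11, adjusted p = 0.00389) and Dld (-0.51, SE 0.09, adjusted p = 0.000804) fell, for a median of -0.49. With the neighbour offset Dld had a log2 fold change of 0.01 and no longer passed. The median of the list was then 0.01, with 1 gene higher and 1 lower. Gldc was not tested.

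Of 10 genes of the methionine cycle and transsulfuration 6 were tested, and 4 of them fell with a median of -0.36 over the 6. These were the methionine synthase gene Mtr (-0.43, SE 0.08), its reductase Mtrr (-0.42, SE 0.09), Mat2a, which makes S-adenosylmethionine (-0.39, SE 0.10), and Ahcy, which breaks down S-adenosylhomocysteine (-0.30, SE 0.09). With the neighbour offset Mtrr was at 0.02 and no longer passed. Mat1a, Bhmt, Gnmt and Cbs were not tested.

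All 8 genes of purine synthesis, a route that takes up formyl groups, were tested, and 5 fell with a median of -0.28. Those with the largest changes were Pfas (-0.47, SE 0.08), Prps2 (-0.37, SE 0.09), Ppat (-0.32, SE 0.07) and Atic (-0.30, SE 0.09). The count of 5 was 3 without METTL7A1 replicate 2, without mock replicate 1 or without mock replicate 2, and it was 6 with the neighbour offset.

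Of 13 genes of serine use and transport 11 were tested, 2 rose and 4 fell, with a median of -0.20. With the neighbour offset 3 were higher and 2 lower, and the median of the list was 0.18. Serinc3, of the serine incorporator family, rose from 57.3 ± 4.2 to 141 ± 16.2 cpm (SD, n = 3; log2 fold change 1.30, SE 0.09, adjusted p = 2.18e-06), and Serinc1 of the same family rose by 0.72 (SE 0.10), or 0.27 with the neighbour offset (adjusted p = 0.0575). Sfxn1, a mitochondrial serine carrier, fell (-0.76, SE 0.08, or -0.26 with the offset), as did Ptdss1, a phosphatidylserine synthase (-0.71, SE 0.08). Sds and Sdsl were not tested.

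The 5 genes of lower glycolysis (Gapdh, Pgk1, Pgam1, Eno1 and Pkm), a route with phosphoglycerate as an intermediate, had a median of -0.14. In edgeR 0 of the 5 passed the test, 0 had an unadjusted p under 0.05, and DESeq2 and voom called 0. The edgeR count was 1 without METTL7A1 replicate 1, without METTL7A1 replicate 3 or without mock replicate 3.

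Of 8 genes for transcription factors known to act on this pathway 7 were tested and all 7 rose, with a median of 0.47. Atf3 was at 1.82 (SE 0.10), Atf5 at 0.89 (SE 0.14), Atf4 at 0.83 (SE 0.08), Cebpb at 0.47 (SE 0.16), Nfe2l2 at 0.39 (SE 0.08), Myc at 0.24 (SE 0.07) and Cebpg at 0.24 (SE 0.07). The libraries of Cebpb overlapped between the groups. Mycn was not tested. With the neighbour offset 5 of the 7 passed, among them Atf4 at 0.61 (adjusted p = 0.000259), and without METTL7A1 replicate 2 the count was 4.

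Of 8 other ATF4 target genes outside serine and folate metabolism 7 rose, with a median of 2.12. Chac1, a glutathione-degrading enzyme, rose from 2.70 ± 0.288 to 32.4 ± 6.61 cpm (SD, n = 3; log2 fold change 3.59, SE 0.17, adjusted p = 1.12e-07). Trib3 (2.49, SE 0.25), Ddit4 (2.48, SE 0.14) and Ddit3 (2.40, SE 0.14) followed, and all 7 also passed with the neighbour offset. Vldlr, the remaining gene of the list, was at 0.40 (SE 0.21, adjusted p = 0.157).

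**Figure D5:**
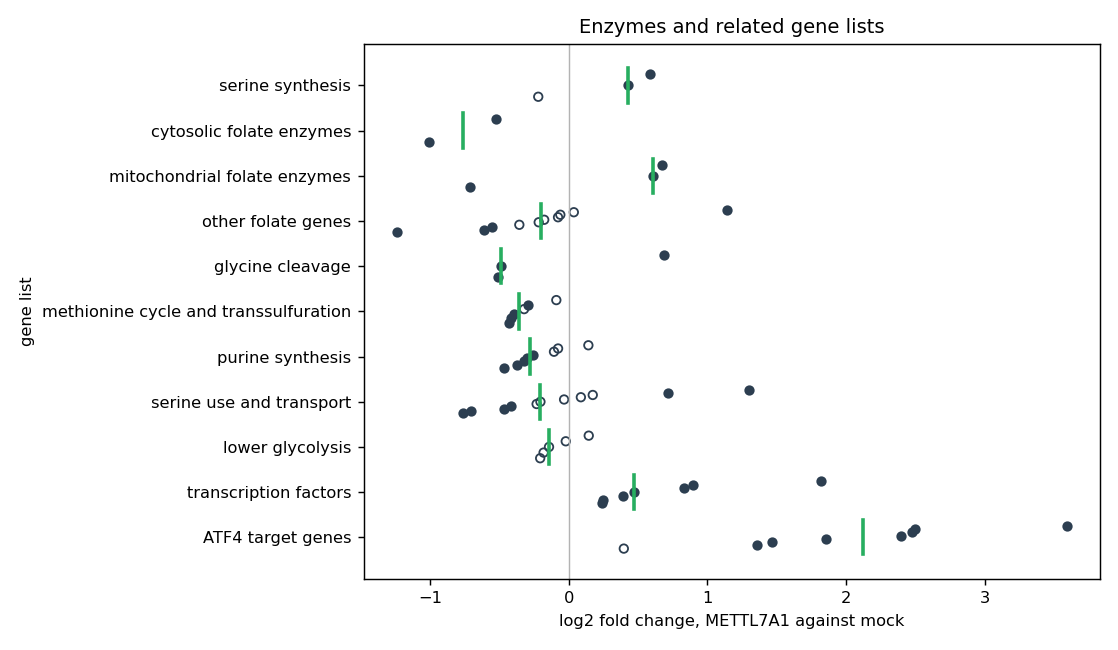
Log2 fold change, METTL7A1 against mock, of the tested genes of the enzyme groups and the related lists, 1 point per gene, filled where the adjusted p was under 0.05, with a bar at each list's median. The transcription factors and other ATF4 target genes lie above 0 with medians of 0.47 and 2.12, while the purine and methionine lists have medians of -0.28 and -0.36.

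Likeness was measured as the root mean square distance over the 6 libraries between the centred log2 cpm profile of a gene and the mean profile of the 7 serine synthesis and mitochondrial enzymes. The nearest tested genes were Leo1 (0.0145), Exosc8 (0.0172), Qars (0.0178), Tle3 (0.0187) and Rgs19 (0.0196). The enzymes themselves lay further away, from 0.117 for Phgdh to 1.2 for Aldh1l2, since that mean averages over members that rose and members that fell. Aldh1l2, with 3 to 28 counts and a log2 fold change of -2.29 with no filter, counts fully in the mean. The mean profile was -0.05, -0.04 and -0.12 in METTL7A1 and 0.15, 0.10 and -0.03 in mock replicates 1 to 3. Log2 fold changes of the nearest genes ran from -0.17 (Tle3) to -0.14 (Leo1). Likeness to a mean without Aldh1l2 was not tested.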

How the data were processed

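The authors sequenced stranded, rRNA-depleted total RNA, trimmed reads with BBDuk, aligned them to mm10 with STAR 2.5.3a, counted them by gene with featureCounts and deposited the raw counts, with each gene's exons and exon length from the annotation. How strand and multimapping reads were handled is not given in the sources used here. All exon bases of AY036118 lie in Gm42418, a gene of the other strand, and AY036118 held 92294 to 2665015 counts per library (0.502 to 13.1%).

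Groups and replicate numbers came from the sample titles. Genes with at least 1 cpm in at least 3 libraries were kept, scaled with TMM factors and tested in R 4.3.3 with edgeR 4.0.16 (glmQLFit, glmQLFTest, no covariate). Benjamini-Hochberg adjustment covered the 13166 tested genes, and a change was called at an adjusted p under 0.05. The SE is the log2 fold change divided by the square root of F. The log base of the study's threshold was taken as log2. The neighbour offset of a gene is the median over its 40 nearest genes with an average log2 cpm over 2.

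The enzymes and all lists were chosen with earlier results of these data known, and lists are described by counts, without a list test. Named were all enzymes, at most 4 called genes per list with the largest changes, all tested transcription factors, all genes not tested, the nearest tested genes beside each enzyme and the 5 genes nearest in profile. For 1 gene of the folate list that the rule selects, the values are not reported here. The Cct6a overlap and Phgdh copies were found in a search of all enzyme genes for shared sequence. Alternatives were RLE and upper quartile scaling, other abundance filters, removal of the 20 most abundant genes, DESeq2 1.42.0, voom of limma 3.58.1, a replicate block, offsets from 20 or 80 neighbours and omission of each library. Exact permutation tests used scipy 1.17.1.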

Additional observations from a re-analysis of the deposited data

How the results depend on the processing

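No enzyme reversed its direction under any alternative run, and Psat1, Psph, Shmt1, Mthfd1, Mthfd2 and Mthfd1l passed the test in all of them. Shmt2 lost its call with each neighbour offset, at 0.08 with 40, 0.01 with 20 and 0.17 with 80 neighbours on the log2 scale (adjusted p = 0.564, 0.969 and 0.189). Mthfd1 was at -0.43 and Mthfd1l at -0.26 with 20 neighbours. Phgdh gained one without mock replicate 3. The median of the enzymes was -0.18 with no abundance filter and -0.20 without the 20 most abundant genes, because Aldh1l2 then entered the test, and -0.071 with 20 neighbours. With Aldh1l2 included, 1 enzyme passed the study thresholds in both of those fits. Over all genes the study thresholds were passed by 326 genes, by 710 with no filter and by 205 with at least 10 counts in every library. The count of transcription factors was 4 with 20 or 80 neighbours. Omission of single libraries gave 3761 to 5753 genes with an adjusted p under 0.05, 243 to 282 past the study thresholds, 7 to 8 enzymes called with a median of 0.02 to 0.17, 31 to 38 of the 58 tested genes of the related lists called, and log2 ratios of 1.09 to 1.18, 1.6 to 1.75 and 0.22 to 0.35 for Shmt2/Shmt1, Mthfd2/Mthfd1 and Mthfd1l/Mthfd1. Exon overlaps on the opposite strand, copies of Phgdh and the low counts of Aldh1l2 limit those genes, and with 3 libraries per group the exact permutation tests of the ratios cannot go below p = 0.1.

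Same-numbered libraries of the groups did not consistently deviate together (correlations of -0.16, 0.25 and -0.40 for numbers 1 to 3), so the numbers were not taken as pairs. Between different numbers the correlation ran from -0.53 (METTL7A1 replicate 1 with mock replicate 2) to 0.52 (METTL7A1 replicate 1 with mock replicate 3). Whether libraries of different numbers belong together was not tested. With the replicate block 4810 genes had an adjusted p under 0.05, 331 passed the study thresholds, and 7 enzymes were called with a median of 0.11, among them Shmt1 at -0.52 and Mthfd2 at 0.67.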
